A study of Mus musculus with 48 samples.

Results

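Transmitter leaves a nerve terminal when a synaptic vesicle fuses with the membrane at the active zone. Fusion is driven by SNARE proteins, of which syntaxins (Stx1a) sit in the terminal membrane and synaptobrevins (Vamp1) in the vesicle. Complexins (Cplx1) hold the assembled SNAREs ready for calcium, synapsins (Syn3) tether vesicles in reserve, and bassoon (Bsn) is a very large scaffold of the active zone. These 5 genes were described in mouse cerebellum. They were picked by symbol from 4 gene tables that together list 6143 genes, and each was found in at least 1 of them.

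Cerebella at postnatal days 27 to 28 gave 4 samples each of 4 groups: wild type (WT), conditional knockout of Chd4 (Chd4 cKO), mice trained on the rotarod, a turning beam that tests balance and motor learning, and mice at rest in the home cage. The rotarod and rest mice are labelled WT. For the cKO, the Cre driver and the Chd4 alleles are described nowhere in the labels, nor is the strain or sex of any mouse. Chd4 encodes the motor subunit of the NuRD chromatin remodeling complex, and its own transcript fell by 0.44 ± 0.06 on the log2 scale in cKO (SE, limma adjusted p = 0.00199, n = 4 per genotype). RNA was read from whole tissue after oligo-dT priming, so fewer cells of a type and less RNA per cell cannot be told apart. WT libraries held 9.40 log2 CPM of Gabra6, a granule neuron marker, and 8.09 of Pcp2, a Purkinje cell marker, so both defining cell types of the cerebellum were sampled. Ribosome-bound RNA from postnatal day 12 was also compared, with 3 libraries per group. Levels are log2 CPM, the log2 of read counts scaled to library size (CPM). Each table is restricted to what the authors' own test called at an adjusted p below 0.05, and such a gene is termed "listed". The words rose and fell are kept for listed genes that limma, run on the values per library, also called at an adjusted p below 0.05.

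The sequence around each start site is shown because 3 of the 4 genes with an entry moved the same way in cKO and the other did not. Each line runs 5′ to 3′ from 250 bases before to 50 bases after the start in RefSeq, on build GRCm38.p6, and capitals mark the GC box GGGCGG on either strand, a sequence that Sp1-type factors are known to bind.
Stx1a, chr5:135023232-135023531, + strand: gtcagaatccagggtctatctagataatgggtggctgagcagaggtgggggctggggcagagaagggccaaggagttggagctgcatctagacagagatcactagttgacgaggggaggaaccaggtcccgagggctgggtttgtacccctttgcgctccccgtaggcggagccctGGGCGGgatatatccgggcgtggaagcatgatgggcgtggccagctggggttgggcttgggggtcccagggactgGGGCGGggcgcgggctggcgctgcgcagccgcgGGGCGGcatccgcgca
Cplx1, chr5:108549978-108550277, - strand: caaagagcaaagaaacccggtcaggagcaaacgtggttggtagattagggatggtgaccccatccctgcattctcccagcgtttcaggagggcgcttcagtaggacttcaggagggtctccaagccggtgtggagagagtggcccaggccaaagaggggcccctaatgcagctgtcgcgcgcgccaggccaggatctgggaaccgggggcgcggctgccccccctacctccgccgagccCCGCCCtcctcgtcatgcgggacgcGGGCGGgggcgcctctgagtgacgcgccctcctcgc
Vamp1, chr6:125215331-125215630, + strand: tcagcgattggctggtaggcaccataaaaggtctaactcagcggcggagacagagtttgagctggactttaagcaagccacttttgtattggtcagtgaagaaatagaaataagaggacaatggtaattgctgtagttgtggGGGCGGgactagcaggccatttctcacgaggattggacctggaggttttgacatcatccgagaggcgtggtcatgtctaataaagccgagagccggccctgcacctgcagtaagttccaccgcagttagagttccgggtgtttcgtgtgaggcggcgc
Bsn, chr9:108190334-108190633, - strand: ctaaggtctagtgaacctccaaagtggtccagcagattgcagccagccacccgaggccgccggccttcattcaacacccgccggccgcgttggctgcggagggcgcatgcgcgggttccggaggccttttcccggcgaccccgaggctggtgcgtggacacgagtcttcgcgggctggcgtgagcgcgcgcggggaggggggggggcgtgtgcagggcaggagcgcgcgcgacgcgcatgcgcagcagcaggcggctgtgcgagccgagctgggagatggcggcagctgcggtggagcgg

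The Stx1a window held 3 GC boxes, the Cplx1 window 2 and the Vamp1 window 1, and the Bsn window held none. Of all 32851 windows of this length, 35.7% held at least 1, as did 60.2% of the windows of genes listed higher in cKO and 58.2% of those listed lower. The core of the cyclic AMP response element, TGACG, was present once for Stx1a and at 2 places for Cplx1, and was not matched for Vamp1 or Bsn. It occurred on either strand in 20.8% of all windows, in 27.4% of those of genes listed higher in cKO and in 26.7% of those listed lower. The E-box CANNTG was matched once in each of the 4 windows, against 72.3% of all windows with at least 1 (68.3% and 64.3% of those listed higher and lower), and the TATA box TATAAA in none of the 4, against 13.6% of all windows and 7.14% and 7.15% of those listed. Bsn had the most GC-rich window at 72.3% G and C with 38 CpG pairs, followed by Cplx1 at 67.0% with 24, Stx1a at 66.3% with 19 and Vamp1 at 51.7% with 14. The median of all windows was 52.7% with 7 CpG pairs, but that of genes listed in either direction was 60.7%, with 17 pairs for those higher and 19 for those lower. These matches describe letters in a window and are not evidence of binding.

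The cKO was compared with WT to see which genes depend on this remodeler. All 5 genes are listed in this table: Stx1a, Syn3, Cplx1 and Vamp1 as higher in cKO and Bsn as lower. Of about 27100 features the authors tested, 11.0% are listed higher and 9.29% lower (20.3% in all), and limma called 8.17% higher and 5.04% lower. The fold changes fell into a large pair and a small pair. Stx1a and Syn3 rose 2.82-fold and 2.72-fold, whereas Cplx1 and Vamp1 rose 1.45-fold and 1.37-fold. Bsn did not pass limma.

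Stx1a, the syntaxin of the fusing terminal, was the least read of the 5. WT libraries 1 to 4 held 2.43, 2.88, 2.84 and 2.83 log2 CPM, or 79, 100, 109 and 103 reads. The cKO libraries 1 to 4 held 4.29, 4.02, 4.45 and 4.20 log2 CPM, or 266, 238, 303 and 283 reads. Every cKO library therefore lay above every WT library, and WT library 1 was lower than the other WT libraries. The log2 difference was 1.50 ± 0.13 (SE, limma adjusted p = 1.56e-04). Reads this few carry a counting error of up to 0.16 log2 in WT, close to the SD of 0.21 between WT libraries.

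Vamp1, the vesicle partner of syntaxin, rose less. WT libraries 1 to 4 held 8.15, 7.81, 7.84 and 7.90 log2 CPM, and cKO libraries 1 to 4 held 8.42, 8.41, 8.34 and 8.34. The groups did not overlap, and WT library 1 was the WT library nearest to cKO. The log2 difference was 0.45 ± 0.08 (SE, limma adjusted p = 0.00725). Counting error was at most 0.03 log2, so nearly all of the WT spread (SD 0.16, n = 4) lies above it.

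Syn3 encodes synapsin III, known as the synapsin of early neuronal development. WT libraries 1 to 4 held 3.96, 4.22, 4.17 and 4.24 log2 CPM, and cKO libraries 1 to 4 held 5.73, 5.46, 5.60 and 5.57. Reads ran from 232 to 278 in WT and from 650 to 735 in cKO. The gap between the groups was several times the spread within either, and the log2 difference was 1.44 ± 0.08 (SE, limma adjusted p = 2.14e-05). In the GRCm38 annotation Timp3, a metalloproteinase inhibitor gene, lies inside Syn3, and Fbxo7 overlaps it in part. Both are listed and rose, Timp3 by 0.78 ± 0.07 (limma adjusted p = 3.06e-04) and Fbxo7 by 0.90 ± 0.05 (limma adjusted p = 1.74e-05). Fbxo7 was named after its value was seen. Strand use in counting is not given in the sources used here, so reads from overlapping genes cannot be told apart, and the Syn3 level carries that uncertainty.

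Cplx1 encodes complexin 1, a small soluble protein that binds the assembled SNARE complex. WT libraries 1 to 4 held 9.40, 9.36, 9.11 and 9.25 log2 CPM, and cKO libraries 1 to 4 held 9.89, 9.83, 9.83 and 9.72. With 8615 to 13448 reads per library, counting error was at most 0.02 log2. All cKO libraries lay above all WT libraries, and the log2 difference was 0.54 ± 0.07 (SE, limma adjusted p = 0.0021).

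Bsn went the other way in the authors' table. WT libraries 1 to 4 held 9.57, 9.71, 10.05 and 9.89 log2 CPM, and cKO libraries 1 to 4 held 9.65, 9.45, 9.54 and 9.58. The groups overlapped: WT library 1 lay below 2 of the cKO libraries, while WT libraries 2, 3 and 4 lay above all of them. The log2 difference was -0.25 ± 0.10 (SE), which did not pass limma (adjusted p = 0.218). It was -0.09 within libraries 1 and 2 and -0.41 within libraries 3 and 4, a split chosen after the data were seen. The authors' deposited table gives it -0.27 and an adjusted p of 0.0158. The SD between WT libraries was 0.21 at 11435 to 16512 reads, far above the counting error of 0.01.

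**Figure D1:**
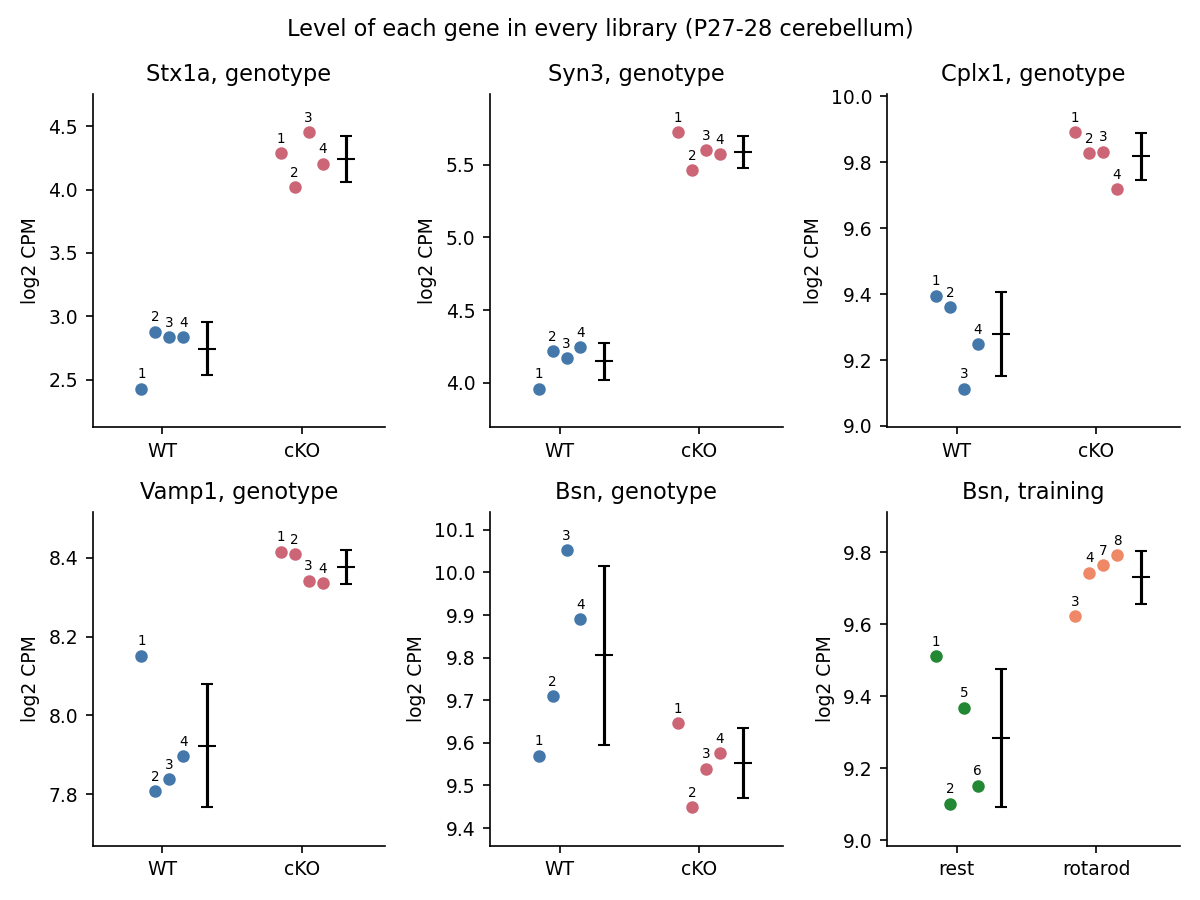
Level of each gene in log2 CPM (y axis, not starting at 0) in every library, numbered by replicate for WT and cKO and by table column for rest and rotarod; bars show mean ± SD, n = 4. WT and cKO libraries are separate for Stx1a, Syn3, Cplx1 and Vamp1 and overlap for Bsn, and rest and rotarod libraries of Bsn are separate.

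Groups did not overlap, with cKO higher, in 44.8% of the listed genes and with cKO lower in 33.2%, so the separation of Stx1a, Syn3, Cplx1 and Vamp1 is common in this table. An exact permutation test over libraries (two-sided) gave p = 0.0286 for each of these 4 genes, the smallest that 4 against 4 allow, and p = 0.0857 for Bsn. Among the 2990 genes listed higher, 335 (11.2%) had a larger log2 difference than Stx1a, 364 (12.2%) than Syn3, 1469 (49.1%) than Cplx1 and 1695 (56.7%) than Vamp1. Among the 2518 listed lower, 1705 (67.7%) differed by more than Bsn. The plot of all listed genes places these values.

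**Figure D2:**
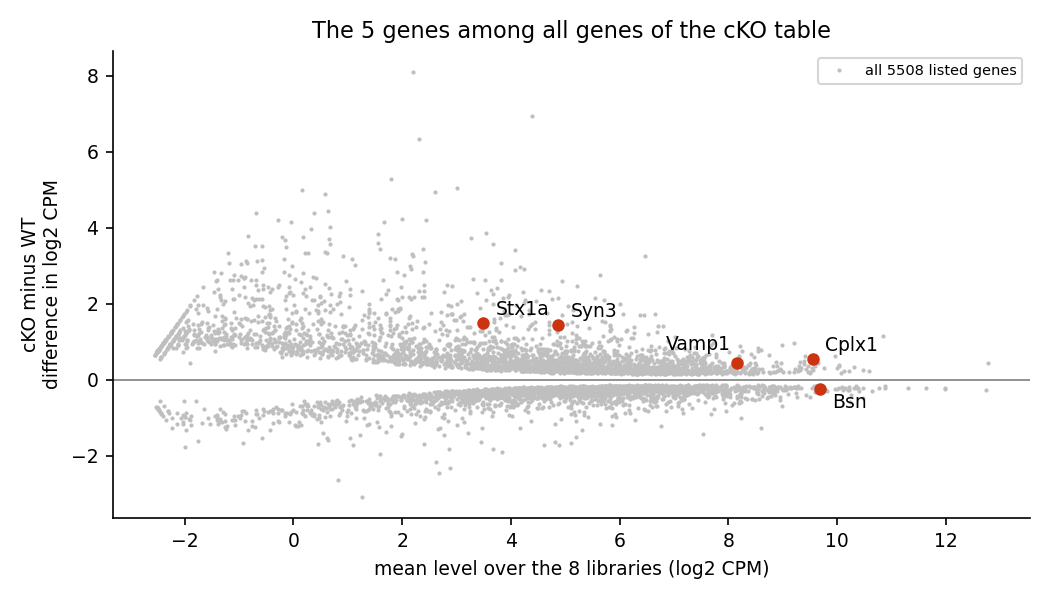
Difference between cKO and WT in log2 CPM (y axis) against the mean level over 8 libraries in log2 CPM (x axis) for all 5508 listed genes (grey), with the 5 genes in red. Stx1a and Syn3 lie at 1.50 and 1.44 at lower levels, Cplx1 and Vamp1 at 0.54 and 0.45 and Bsn at -0.25 at higher levels.

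Within a library the ratio of 2 genes is free of the library's size. The Stx1a to Syn3 ratio differed by 0.05 log2 between genotypes and its ranges overlapped, from -1.53 to -1.33 in WT and from -1.44 to -1.14 in cKO. The Cplx1 to Vamp1 ratio differed by 0.09, also with overlap, from 1.24 to 1.55 in WT and from 1.38 to 1.49 in cKO. The other 8 ratios among the 5 genes had ranges that did not overlap. How often other pairs of listed genes do so was not counted, and 78.0% of listed genes are separated between genotypes on their own. The Stx1a to Vamp1 ratio, of the 2 SNARE genes, ran from -5.72 to -4.93 in WT and from -4.39 to -3.89 in cKO, a log2 difference of 1.04. The Stx1a to Bsn ratio moved most, by 1.75. These ratios are given without a test, because the genes were chosen with their changes known.

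The libraries' patterns were also matched to those of the other listed genes, without predicted genes (symbols starting Gm and a digit or ending Rik). The measure was the root mean square difference over the 8 libraries after each gene was centred on its own mean. That mean covers both groups, so the measure includes the difference between groups. Near genes need not vary together within a group. The nearest to Stx1a was Syn3, at 0.11 log2, followed by Csmd2 (0.12) and Aldh18a1 (0.13). Their differences between genotypes were 1.44, 1.41 and 1.56, against 1.50 for Stx1a. Nearest to Syn3 were Ebf4 (0.07), Cgn (0.09) and Tgfb1i1 (0.10). Nearest to Cplx1 were Mapk3 (0.03), Ccdc71l (0.05) and Ankrd34b (0.06), and nearest to Vamp1 were Limk1, Guk1 and Hsd17b11, each at 0.05. Nearest to Bsn were Cacna1a (0.04), which encodes the pore of the P/Q-type calcium channel of terminals, then Pcnt (0.04) and Speg (0.05). Pcnt and Speg are not in the presynaptic list used below.

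The 5 genes were then set in a list of 72 presynaptic genes arranged by role, chosen with earlier results of these data known. In cKO, 27 of the 72 (37.5%) are listed higher, 19 (26.4%) are listed lower and 26 are not listed. The shares over all features tested are 11.0% higher and 9.29% lower. Here and below, such shares cover features of every level and were not matched to a list by level. Limma called 23 higher and 11 lower, against 8.17% and 5.04% of all features. With each library centred on its median over the listed genes, which lowers the differences by about 0.10, limma called 16 higher and 15 lower. Those medians rest on called genes alone, more of them higher in cKO than lower, so centring takes out part of the genotype difference. It therefore cannot show whether the balance of directions depends on library scaling. Calls gained or lost with centred libraries, here and below, carry this limit. Centring brought the differences of Nsf, Dnajc5, Sncb, Napb, Cplx2, Erc2, Rab3a and Sv2a to between 0.07 and 0.16, none past limma. The median log2 difference of the 46 listed was 0.21, the same as the 0.21 of all 5508 listed genes. Without the 5 genes, 23 of 67 are listed higher and 18 lower. Of the 34 genes limma called, 25 kept the call whichever single library was left out (17 higher, 8 lower). The 9 that did not were Nsf, Dnajc5, Syt7, Erc2, Ppfia2, Sv2a, Sv2c, Slc32a1 and Cacna1b, each lost on leaving out any of 3 to 7 libraries, and their values are given below without a verb of change.

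Among 5 core SNARE genes Stx1a and Vamp1 rose. Snap25, the third partner of the fusion complex, differed by -0.17 ± 0.06 (limma adjusted p = 0.121), or -0.27 with centred libraries (limma adjusted p = 0.0213), and Vamp2, the paralog of Vamp1, is not listed. Of 9 chaperones and regulators of SNAREs, 5 are listed higher and 2 lower. Stxbp5, encoding tomosyn, rose by 0.23 ± 0.05 (limma adjusted p = 0.0124), a call lost with centred libraries (0.13, limma adjusted p = 0.154). Nsf, the ATPase that takes SNARE complexes apart, differed by 0.20 ± 0.05, Dnajc5 by 0.21 ± 0.05, Sncb by 0.21 ± 0.10, Napb by 0.19 ± 0.07 and Stxbp5l by -0.21 ± 0.09.

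Complexin genes are listed higher in 3 of 4 cases, and Cplx4 is not listed. Cplx3, known from ribbon synapses of the retina, had 28 reads over the 4 WT libraries (5 to 8 each) and 359 over the 4 cKO libraries (55 to 150 each). No library of either genotype overlapped the other. It rose by 3.27 ± 0.32 on the log2 scale (limma adjusted p = 3.47e-04), and by 2.10 with 1 CPM added before the log, since the value depends on the prior count at so few reads. Cplx2 differed by 0.17 ± 0.05 (limma adjusted p = 0.0852). The complexins that rose were thus Cplx1, from a high level, and Cplx3, from near the floor.

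Among 7 calcium sensor genes, 2 are listed higher and 3 lower. Doc2a, a calcium sensor of spontaneous and asynchronous release, had 23 reads over the WT libraries (3 to 8 each) and 185 over the cKO libraries (37 to 54 each), and rose by 2.72 ± 0.25 (limma adjusted p = 2.55e-04), and by 1.50 with 1 CPM added. Syt1, the sensor of fast release, rose by 0.29 ± 0.05 (limma adjusted p = 0.00397), or 0.19 with centred libraries (limma adjusted p = 0.0275), and Syt9 fell by 0.48 ± 0.06 (limma adjusted p = 0.0013). Syt7 and Syt12 differed by -0.26 ± 0.06 and -0.22 ± 0.06, and Syt12 passed limma with centred libraries (-0.31, adjusted p = 0.00814). Of the 3 synapsins only Syn3 is listed.

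Active zone scaffolds and priming factors had the most members listed lower: 9 of 14, with 3 higher and 2 not listed. Limma called 5 lower and 3 higher, and Ppfia2 and Erc2 among them lost the call with some single libraries left out. In the whole test, 9.29% of features are listed lower and limma called 5.04% lower. Rims4 fell by 0.89 ± 0.06, with WT libraries 1 to 4 at 7.56, 7.66, 7.68 and 7.53 log2 CPM and cKO libraries 1 to 4 at 6.66, 6.79, 6.70 and 6.74 (limma adjusted p = 3.59e-05). Unc13c, the Munc13 of granule cell terminals, fell by 0.81 ± 0.06, from 8.30 to 8.46 in WT to 7.46 to 7.66 in cKO (limma adjusted p = 8.54e-05). Both gaps exceeded the spread within either group several times over. Erc1 fell by 0.44 ± 0.07 and Rims1 by 0.37 ± 0.07 (limma adjusted p = 0.00482 and 0.0114). Rims3 rose by 0.47 ± 0.08 and Unc13b by 0.44 ± 0.07 (limma adjusted p = 0.00633 and 0.00385). Erc2, Ppfia2 and Rims2 differed by 0.26 ± 0.06, -0.22 ± 0.06 and -0.18 ± 0.05, and Rims2 passed limma with centred libraries (-0.28, adjusted p = 0.0144). Unc13a differed by -0.24 ± 0.16 (limma adjusted p = 0.843), and by -0.13 without WT library 3 and -0.16 without cKO library 2.

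Pclo, encoding piccolo, the close relative of bassoon, had WT libraries 1 to 4 at 9.28, 9.66, 9.72 and 9.86 log2 CPM and cKO libraries 1 to 4 at 9.28, 9.09, 9.34 and 9.23. As with Bsn, WT library 1 lay among the cKO libraries and the other WT libraries lay above them. The log2 difference was -0.39 ± 0.12 (limma adjusted p = 0.0788), and without WT library 1 it was -0.51 (limma adjusted p = 0.00716). Pclo also passed limma with the libraries centred on their median (-0.49, adjusted p = 0.0355) and with 5 CPM added before the log (adjusted p = 0.0381), so its call depends on the setting. Cacna1a showed the same overlap, with 9.85, 10.00, 10.28 and 10.16 in WT libraries 1 to 4 and 9.92, 9.67, 9.83 and 9.92 in cKO libraries 1 to 4, and differed by -0.24 ± 0.10 (limma adjusted p = 0.256).

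Of 5 genes of Rab3, the small GTPase of vesicles, and its effectors, 3 are listed higher and 1 lower. Rab3b rose by 0.77 ± 0.10 and Rab3d by 0.65 ± 0.10, Rab3a differed by 0.24 ± 0.07 (limma adjusted p = 0.0505), and rabphilin (Rph3a) fell by 0.28 ± 0.05. Of 7 vesicle membrane genes 4 are listed, all higher: Syngr3, a synaptogyrin, rose by 0.71 ± 0.09 and synaptophysin (Syp) by 0.30 ± 0.05, and Sv2c and Sv2a differed by 0.41 ± 0.11 and 0.20 ± 0.05. Both Amph and Bin1, amphiphysins of vesicle retrieval, rose, by 0.28 ± 0.05 and 0.32 ± 0.06, while the other 7 of 9 endocytosis genes are not listed. The call of Amph was lost with centred libraries (0.18, limma adjusted p = 0.0569). Of 6 calcium channel genes Cacna2d3 rose by 0.44 ± 0.06, Cacnb4 fell by 0.34 ± 0.05, and Cacna1b, the N-type pore, differed by 0.49 ± 0.11. Of 3 vesicular transporters only Slc32a1, that of GABA and glycine, is listed, at -0.37 ± 0.10. The glutamate transporters Slc17a7 and Slc17a6 are not listed. For the genes said to have moved here, without centring, limma's adjusted p was at most 0.0105.

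**Figure D3:**
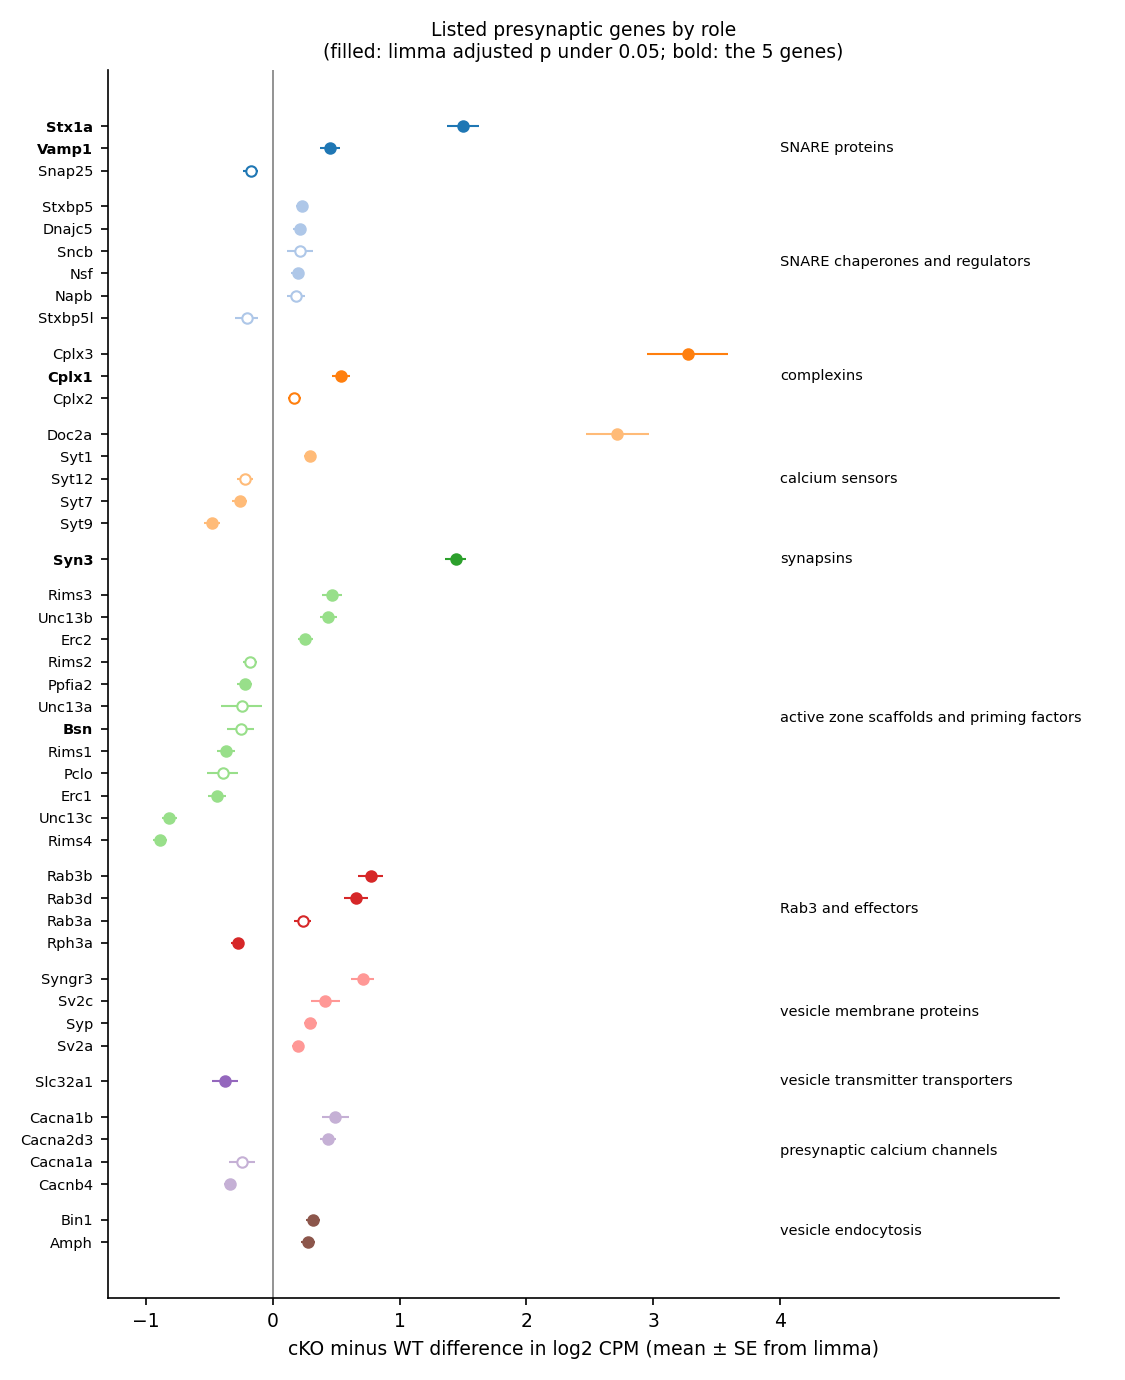
Difference between cKO and WT in log2 CPM (x axis, mean ± SE from limma, n = 4 per genotype) for the listed presynaptic genes reported here, grouped by role; filled circles passed limma and the 5 genes are in bold. Cplx3 and Doc2a lie farthest right at 3.27 and 2.72, and 9 of the 12 active zone genes shown lie left of 0. Of these 9, limma called 5.

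Many markers of cell types are listed too. Of 44 markers of cells other than granule neurons, among them Purkinje cells, inhibitory interneurons and glia, 29 are listed lower, 1 higher (Calb2) and 14 not listed. Limma called 18 of the 44 lower and 1 higher. Over all features tested, 9.29% are listed lower and 11.0% higher, and limma called 5.04% lower and 8.17% higher. Slc32a1 is in both this list and the transporters. Their summed level was 17664 to 19324 CPM in WT and 16002 to 16633 in cKO, and no listed marker was at 0. Within it, the summed level of 3 listed unipolar brush cell markers was higher in cKO (587 to 661 CPM in WT, 932 to 1042 in cKO), which Calb2 carried. None of 5 microglia markers is listed. Of 8 granule neuron markers, 2 are listed higher and 3 lower, with summed levels of 3089 to 3313 CPM in WT and 2553 to 2695 in cKO. Stx1a, Syn3, Cplx1 and Vamp1 rose in the same whole-tissue RNA, and the direction of the markers does not tell which cells carried them. The part of cell numbers in the differences was not tested.

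Rotarod training was compared with rest in separate libraries to find genes that motor activity changes. Bsn is listed there as higher after training, and Stx1a, Syn3, Cplx1 and Vamp1 are not listed. Of about 26900 features tested, 2.06% are listed higher and 1.31% lower (3.38% in all), and limma called 0.42% higher and 0.201% lower. The 4 rest libraries, known by column number, held 9.51 (column 1), 9.10 (column 2), 9.37 (column 5) and 9.15 (column 6) log2 CPM of Bsn. The rotarod libraries held 9.62 (column 3), 9.74 (column 4), 9.76 (column 7) and 9.79 (column 8). Every rotarod library was above every rest library. Of the genes listed after training, 51.1% were separated with rotarod higher and 33.8% with rotarod lower. The log2 difference was 0.45 ± 0.10 (SE, n = 4 per group), which did not pass limma (adjusted p = 0.124), while the authors' deposited table gives 0.47 with an adjusted p of 0.00127. An exact permutation test (two-sided) gave p = 0.0286, the smallest it can reach, which follows from the separation and adds nothing to it.

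Of the 44 markers of cells other than granule neurons, 4 are listed with training. Eomes, of unipolar brush cells, rose by 1.31 ± 0.18 (limma adjusted p = 0.0237), with 26.7 to 34.5 CPM at rest and 55.8 to 97.0 after training. Sox9, of astroglia, differed by -0.43 ± 0.08, Col1a1, of meninges, by -0.44 ± 0.13, and Flt1, of vessels, by 0.38 ± 0.14, none past limma. The part of cell numbers in the Bsn difference was not tested.

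No other gene of the list of 72 is in the training table. Patterns nearest to Bsn over its 8 libraries, by the measure used for cKO, were those of Wdfy3 (0.05 log2), Cep350 (0.06) and Kmt2a (0.07). Bsn thus has values in both comparisons, -0.25 ± 0.10 in cKO and 0.45 ± 0.10 with training, neither of them past limma. Their difference was not tested. The tables were scaled separately, so its level in WT libraries (9.57 to 10.05) and in rest libraries (9.10 to 9.51) is set side by side only.

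**Figure D4:**
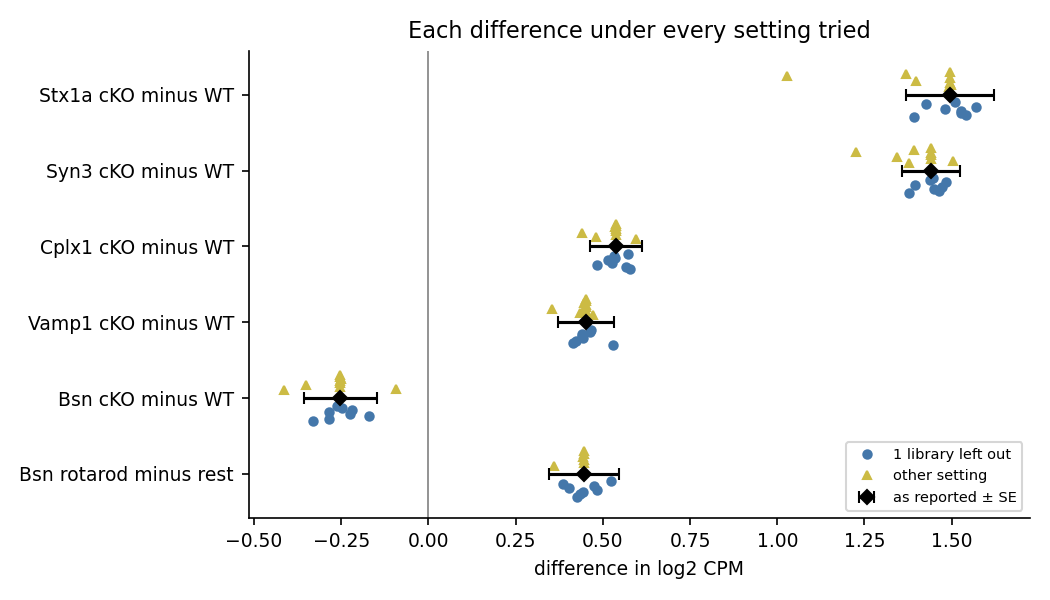
Difference in log2 CPM (x axis) for each gene and comparison (y axis) as reported (black diamond, ± SE), with 1 library left out (blue circles) and under the other settings tried (yellow triangles). All points of a row stay on the same side of 0, and Bsn in cKO spans -0.41 to -0.09.

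At postnatal day 12, 6 days after electroporation, ribosome-bound RNA was pulled down from cKO and WT cerebella by Sync-TRAP. None of the 5 genes is among the 38 genes listed for pull-downs of cKO against WT, where 0.117% of features are listed higher and 0.0312% lower (0.148% in all), or among the 51 listed for pull-down against input in WT, where 0.115% are listed higher and 0.0802% lower (0.195% in all). Their levels at that age are therefore not known here.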

How the data were processed

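The deposited values are log2 CPM, to which the authors' software had added a prior count. Beside them stand the authors' log2 fold change, likelihood ratio score, p-value and its adjusted form, per the file headers. The submitters' processing notes name Bowtie, edgeR and build mm9, with roles, versions, counting tool and strand handling not given in the sources used here. Lines that repeat a gene were dropped. After the floor was removed, every value of up to 300 reads was whole to within 0.1 read, which gave reads and effective library sizes of 13.7 to 16.7 M per library. Counting errors cover counting alone.

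Differences come from limma 3.58.1 (R 4.3.3) on all listed genes, with Benjamini-Hochberg adjustment over the features tested (adjusted p times rank over p). Its variance prior rests on called genes alone. The p-values measure the spread between samples that the labels call replicates. No count model was run, since the values are logs of called genes only. Named genes are the 5 genes, paralogs, every listed gene of the presynaptic list, Timp3, Chd4 and the 3 nearest patterns. Members and lists were chosen with earlier results of these data known. Genotype libraries with the same number did not all deviate together (correlations 0.221, 0.228, 0.369 and -0.02), so numbers were not taken as pairs. Deviations leaned toward 2 sets instead. Correlations across genotypes were -0.02 to 0.519 within libraries 1 and 2 and 0.221 to 0.452 within libraries 3 and 4. Between the sets they were -0.481 to 0.0062, a range that overlaps the first. Centring within each genotype makes some correlations negative by construction, and the sets were found in these same libraries. The labels name no batch. Column numbers of the training table match no sample title. Promoter windows for 4 of the 5 genes were matched by symbol in RefSeq. Some genes of the presynaptic list enter the counts and are not reported singly here. Region lists on mm9 were not used here.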

Additional observations from a re-analysis of the deposited data

Results flagged for a closer look

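In 3 of the 100 groups of 4 libraries examined, a library lay far from the other 3, fewer than the 1 in 20 that chance gives. Stx1a was at 2.43 log2 CPM in WT library 1 and at 2.83 to 2.88 in the other WT libraries. Chd4 was at 8.06 in cKO library 1 and at 7.90 in each of the other cKO libraries. Dnajc5, the cysteine string protein gene, was at 8.66 in cKO library 1 and at 8.77 to 8.78 in the other cKO libraries. Without WT library 1 the difference of Stx1a between genotypes was 1.39.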

How the results depend on the processing

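Stx1a, Syn3, Cplx1 and Vamp1 kept their direction and limma's call under every planned setting that gave a value. The filter at median abundance leaves Stx1a out. With 1 library left out, differences ranged from 1.39 to 1.57 for Stx1a, 1.38 to 1.48 for Syn3, 0.48 to 0.58 for Cplx1, 0.41 to 0.53 for Vamp1, -0.33 to -0.17 for Bsn in cKO and 0.39 to 0.52 for Bsn with training. Adding 5 CPM before the log lowered Stx1a to 1.03. With the replicate block, adjusted p was 0.00331, 0.0019, 0.00947 and 0.0203 for the 4 genes and 0.294 for Bsn, and limma called 18 higher and 8 lower of the presynaptic list. The block changed none of the 5 genes' calls. Adjusted over listed genes alone, which leaves out the features not listed, Bsn passed limma in cKO (-0.25, adjusted p = 0.0444) and with training (0.45, adjusted p = 0.00417). Chosen after the data were seen, within libraries 1 and 2 the differences were 1.50 for Stx1a, 0.48 for Cplx1, 0.43 for Vamp1 and -0.09 for Bsn, and within libraries 3 and 4 they were 1.49, 0.59, 0.47 and -0.41. With fewer samples limma kept Syn3 in both sets and Stx1a in libraries 3 and 4 alone. Of the presynaptic list, 8 higher and 2 lower had a log2 fold change of at least 0.5 in the authors' deposited table, and limma called 11 of the 19 listed lower. Left-out libraries gave 17 to 21 higher and 8 to 10 lower limma calls. With training, 0 genes of the list reached that fold change and limma called 0, and only Bsn is listed. Unadjusted p-values of the genes not listed are not known here. Depth limits Stx1a, Cplx3 and Doc2a most, in WT.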
